A study of Mus musculus with 12 samples.

Results

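Chromatin accessibility after exposure to lipopolysaccharide (LPS) was compared between macrophages made to express Nur77 and macrophages made to express green fluorescent protein (GFP). The 6 libraries, 3 per line, were taken by their titles from a series of 12, whose other 6 libraries came from the same lines without LPS. All cells were RAW 264.7, a mouse macrophage-like line. The Nur77 cells and the GFP control cells were stable lines with a gene switched on by doxycycline, and both groups, controls included, received doxycycline at 1 µg/ml for 18 h followed by LPS at 500 ng/ml for 1 h. Accessibility was measured by ATAC-seq, in which a transposase inserts sequencing adapters into open DNA, and every library came as 1 list of peaks on mouse build mm10. Each gene was carried by 1 stable line, and the labels do not say whether a line is a clone, so an effect of Nur77 and a difference between the lines cannot be told apart. Separate cultures are not named for the replicates either. The p-values therefore measure the spread between these libraries, which may be technical.

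Nur77, the product of Nr4a1, is an orphan nuclear receptor that is switched on early in stimulated macrophages. It binds as a monomer to an element called the NBRE and can also act through other DNA-bound factors. AP-1 is a family of dimers of Fos, Jun, Maf and Atf proteins that opens and occupies inflammatory enhancers soon after Toll-like receptor signalling. LPS, a component of the bacterial outer membrane, activates these factors together with NF-kB, and cytokine and chemokine genes follow.

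Start sites at which the lists separated the lines are shown first, because the results return to them. Each sequence is the 250 bases before an annotated start, from RefSeq windows on GRCm38.p6 (the assembly of mm10), read 5′ to 3′ on the strand of the gene. Capitals mark matches, on either strand, to the AP-1 letters TGANTCA or, in Il6 alone, also to an NF-kB consensus. Klf6 (chr13:5861239-5861488, plus strand) lay under a peak of the GFP line that was missing from the Nur77 lists, and Ece1 (chr4:137913308-137913557, plus strand) lay under a peak found in the Nur77 lists alone. Il6 (chr5:30012864-30013113, plus strand), Cgref1 (chr5:30945481-30945730, minus strand), Cd244a (chr1:171558943-171559192, plus strand) and Atp13a4 (chr16:29544865-29545114, minus strand) had peaks in all 6 lists that ranked lower in the Nur77 line.
Klf6: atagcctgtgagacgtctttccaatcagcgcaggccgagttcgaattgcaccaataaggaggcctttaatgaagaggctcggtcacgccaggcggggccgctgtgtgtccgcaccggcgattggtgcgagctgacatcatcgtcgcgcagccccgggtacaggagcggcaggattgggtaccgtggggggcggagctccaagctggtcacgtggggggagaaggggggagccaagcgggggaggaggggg
Ece1: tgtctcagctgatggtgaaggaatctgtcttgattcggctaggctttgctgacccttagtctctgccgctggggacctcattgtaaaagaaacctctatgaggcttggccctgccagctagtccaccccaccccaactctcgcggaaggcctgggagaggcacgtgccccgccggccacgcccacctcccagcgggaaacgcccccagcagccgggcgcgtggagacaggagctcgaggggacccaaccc
Il6: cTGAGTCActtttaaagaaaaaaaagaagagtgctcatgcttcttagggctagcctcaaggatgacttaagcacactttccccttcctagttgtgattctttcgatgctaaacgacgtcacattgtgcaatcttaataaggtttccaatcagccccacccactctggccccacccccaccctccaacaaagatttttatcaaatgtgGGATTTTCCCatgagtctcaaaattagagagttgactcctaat
Cgref1: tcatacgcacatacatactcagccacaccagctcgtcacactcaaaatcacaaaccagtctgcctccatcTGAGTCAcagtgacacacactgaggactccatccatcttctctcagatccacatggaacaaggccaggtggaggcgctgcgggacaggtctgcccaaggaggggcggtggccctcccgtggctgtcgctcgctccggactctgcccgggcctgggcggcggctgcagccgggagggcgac
Cd244a: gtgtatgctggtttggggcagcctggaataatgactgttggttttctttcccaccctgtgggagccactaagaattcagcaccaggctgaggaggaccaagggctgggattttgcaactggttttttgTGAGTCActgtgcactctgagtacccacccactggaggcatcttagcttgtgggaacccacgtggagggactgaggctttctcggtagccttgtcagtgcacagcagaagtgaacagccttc
Atp13a4: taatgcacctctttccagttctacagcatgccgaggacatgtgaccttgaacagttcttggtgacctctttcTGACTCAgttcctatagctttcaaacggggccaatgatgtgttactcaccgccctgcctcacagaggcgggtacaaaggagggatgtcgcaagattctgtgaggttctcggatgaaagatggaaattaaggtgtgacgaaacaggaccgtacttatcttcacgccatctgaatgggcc
The AP-1 letters began 249 bases before the Il6 start, 180 before Cgref1, 122 before Cd244a and 178 before Atp13a4. The printed windows ranked lower are not typical in this. Outside chromosome 12, 31 of 136 start-site regions ranked lower held the letters (22.8%). Cgref1, Cd244a and Atp13a4 were named after their values were seen. The Klf6 and Ece1 windows held none of the 5 motifs searched.

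With all peaks, peak number, covered length and the share at gene ends differed between the groups by less than the spread between libraries. The Nur77 libraries held 59858, 44790 and 52895 peaks and the GFP libraries 48275, 56888 and 81467 (52514 ± 7541 against 62210 ± 17224, SD, n = 3 each, two-sided exact permutation p = 0.5), and the difference shrank to -67.2 peaks without GFP replicate 3. Covered length was 48.4 ± 8.1 Mb in the Nur77 lists and 56.1 ± 19.4 Mb in the GFP lists (n = 3 each, exact permutation p = 0.7), and without GFP replicate 3 the difference turned to 2.964 Mb more in the Nur77 lists. The share of peaks within 1 kb of either end of a gene was 23.2 ± 2.2% and 20.9 ± 3.3% (n = 3 each, exact permutation p = 0.5), a difference of 2.243 points that fell to 0.482 without GFP replicate 3. In lists trimmed to equal length this share was 25.347 ± 0.14% against 24.953 ± 0.1% (n = 3 each), and the groups did not overlap (exact permutation p = 0.1). With 3 libraries against 3, this test cannot go below 0.1. Read totals are not used here. From the grid of the authors' fold values, the weakest listed summits held 5 to 8 reads per library, and an absent call therefore means a signal under that level rather than closed chromatin. All 13 macrophage marker genes, among them Csf1r, Spi1 and Adgre1, had a peak in each of the 6 lists. Markers of other cells also had peaks, 3 of 5 T cell genes and 3 of 6 fibroblast genes in every list, 2 to 5 of 5 B cell genes, 1 to 3 of 5 epithelial genes and 1 to 2 of 5 neuronal genes. Cd3e and Cd8a of T cells and Col1a2, Dcn and Twist1 of fibroblasts had none in any list.

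The introduced gene was examined at its own locus. A region inside Nr4a1 (chromosome 15, 101270092 to 101272260) was called in 3 of 3 Nur77 lists, at list percentiles of 44.4, 44.5 and 23.9, and in 0 of 3 GFP lists. These percentiles order the peaks of 1 library by the authors' -log10 q, and 100 is the strongest. The untreated lists were split in the same way, 3 of 3 against 0 of 3. The start-site region of Nr4a1 (101265685 to 101267396) was called in all 6 lists and shifted by only -4.3 percentile points (limma, adjusted p = 0.66). Reads from the inserted Nur77 gene and from the native locus are not distinguished in the lists. Nr4a2 and Nr4a3, the related receptors, each had 2 regions within 50 kb in all 6 lists, and none passed the test.

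Calls that separated the lines after LPS were mostly losses in the Nur77 line. The peaks of the 6 lists merged into 89589 regions, of which 32491 were called in all 6. Regions called in 3 of 3 Nur77 lists and 0 of 3 GFP lists, here termed gained, numbered 240 (0.268% of all regions), and regions with the opposite pattern, termed lost, numbered 1690 (1.89%). No single region can be tested in such a count. List length shaped the balance: with every list trimmed to the 44790 strongest peaks, the length of the shortest, 850 regions were gained and 1249 lost. The longest list, GFP replicate 3, weighed most on gains, which rose to 1417 without it, against 750 without Nur77 replicate 2 and 458 without Nur77 replicate 3. Losses rose to 5203 without GFP replicate 1, the shortest GFP list, to 2997 without GFP replicate 2 and to 2916 without Nur77 replicate 1. Leaving out a list makes the rule ask for fewer lists, so neither count could fall when a library was left out. Lost regions outnumbered gained regions in each of these settings.

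**Figure D1:**
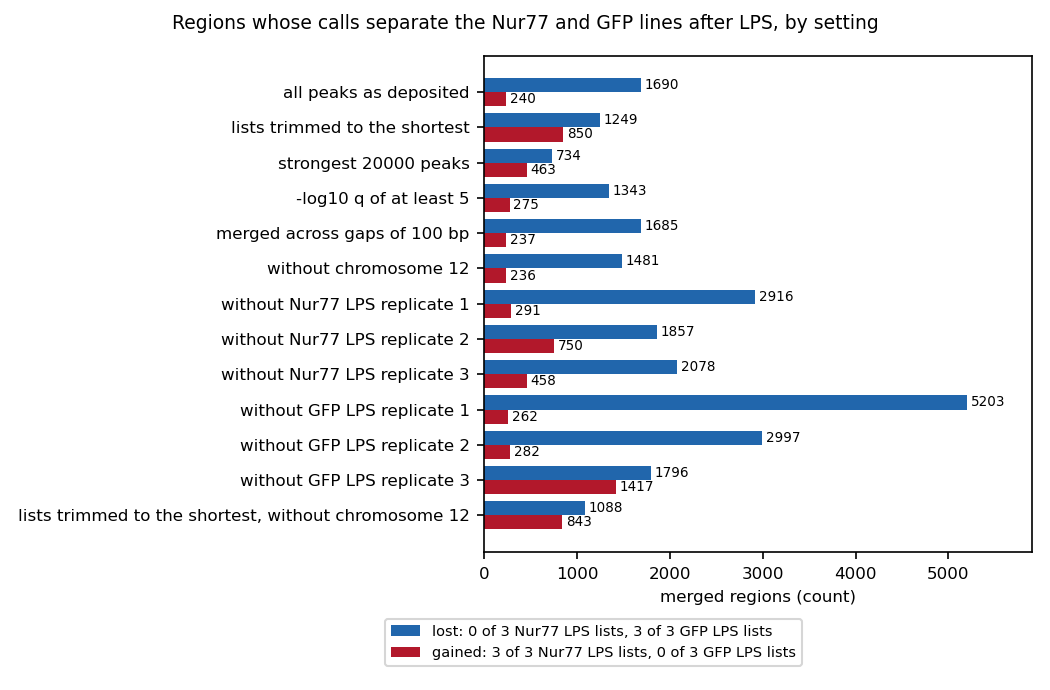
Counts of merged regions (x axis) whose calls separate the lines, by setting (rows). Blue bars are lost regions and red bars gained regions; blue exceeds red in every row, and the ratio of lost to gained is lowest without GFP LPS replicate 3 (1796 lost, 1417 gained, 1.27 per gained region) and highest without GFP LPS replicate 1 (19.9).

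Of the 10 gained regions with the strongest peaks, 5 lay at start sites. The most prominent outside chromosome 12 overlapped Arhgef33, a guanine nucleotide exchange factor gene (chromosome 17, 80372969 to 80374404), at list percentiles of 80.4, 76.9 and 74.2 in the Nur77 lists. The start site assigned to this region was that of a predicted gene, Gm10190. The start site of Ece1, which encodes endothelin-converting enzyme, followed the same pattern within its region of chromosome 4 (137912788 to 137914402), at 77.3, 70.4 and 75.8. Zic5, a zinc finger transcription factor gene (chromosome 14, 122462730 to 122465629), stood at 81.1, 68.1 and 75.3. All 3 loci had peaks in the upper part of every Nur77 list and none in any GFP list. This follows from the choice of gained regions with the strongest peaks. The other gained regions among the 10 most prominent lay at or near Pfn4 (a profilin, on chromosome 12, at the start of its neighbour Fam228b), Hmox2 (the constitutive heme oxygenase), Sh3gl3, Rasgrf2 (a Ras exchange factor), Apold1, Phf10 (a subunit of the BAF remodelling complex) and Ap1b1, an adaptor of clathrin transport and not part of the AP-1 factor, at mean list percentiles between 58.8 and 82.5. Of the 10, 7 were also called in 3 of 3 untreated Nur77 lists and 0 of 3 untreated GFP lists, while the Apold1 region was called in all 6 untreated lists.

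The most prominent loss was the start site of Klf6, which encodes a zinc finger factor active in inflammatory macrophages. Its region (chromosome 13, 5860572 to 5862494), which holds the sequence printed above, stood at list percentiles of 87.6, 89.5 and 91.9 in the GFP lists and was absent from all 3 Nur77 lists, and the untreated lists were split 0 of 3 against 3 of 3 in the same way. The neighbourhood did not share the loss: the 6 shared regions within 50 kb of Klf6 shifted by -5.3 to 12.3 percentile points, and none passed the test. Next came an intragenic region of Ppargc1a (chromosome 5, 51591221 to 51592420), at 77.8, 76.5 and 85.6 in the GFP lists; this gene encodes PGC-1alpha, a coactivator of mitochondrial biogenesis. A further 2 regions of Ppargc1a were lost and 1 that was shared fell from percentiles of 60.3, 64.8 and 57.7 to 6.0, 14.6 and 7.7 (limma, adjusted p = 1.1e-05). Ppargc1a was thus lower at 4 places, with no region gained or ranked higher. Other lost regions among the most prominent lay near Plpp4, a lipid phosphate phosphatase (3 regions 73.8 to 92.0 kb away), and at or near Fbxl21, Pxdn (on chromosome 12), Mcm3ap, Ankdd1a and Hspb8. The 21 gained and lost regions picked as most prominent all kept their calls with trimmed lists. Trimming takes out only the weakest peaks and adds none, so regions picked for strong peaks could not fail this check. With the 20000 strongest peaks of each list, 17 kept their calls.

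Where all 6 lists had a peak, strength was compared by rank. The 32491 shared regions were ranked by -log10 q in each library, which gives percentiles over equal sets, and normal scores of the ranks were tested with limma. At a Benjamini-Hochberg adjusted p under 0.05, 1123 regions ranked higher in the Nur77 line (3.46%) and 2252 ranked lower (6.93%). By the looser criterion that the 3 libraries of a line all lie on 1 side of the other 3, the balance was even, with 4701 higher (14.5%) and 4729 lower (14.6%). The median shift over all shared regions was 0.68 percentile points. Of these calls, 278 of those ranked higher and 1132 of those ranked lower kept theirs in all 6 fits that left out a library. Calls of higher rank fell to 471, 516 and 552 without Nur77 replicate 1, 2 and 3 in turn, and calls of lower rank to 1489 without Nur77 replicate 1. Spearman correlations over the shared regions, given as a description, were 0.948 to 0.959 among Nur77 libraries, 0.924 to 0.955 among GFP libraries and 0.876 to 0.908 between the lines.

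The greatest rise was at a region on chromosome 13 (102663349 to 102668413) that holds the start of a predicted gene, Gm41046, 25.1 kb from Cd180, a relative of Toll-like receptors. It stood at percentiles of 72.2, 78.8 and 69.4 in the Nur77 libraries and 12.1, 7.6 and 1.3 in the GFP libraries (difference 2.24 ± 0.23 SE in normal score, limma adjusted p = 7.0e-07). A region inside Cdk6, a kinase of the G1 phase (chromosome 5, 3355293 to 3356591), stood at 81.1, 78.4 and 82.4 against 16.0, 18.6 and 16.3 (1.82 ± 0.15 SE, limma adjusted p = 2.1e-08). Both pairs of groups were far apart, with no library near the other line. The regions were picked for large shifts without overlap of the groups, so this separation follows from the choice. Cdk6 had 15 shared regions within 50 kb, of which 4 ranked higher and none lower. Cd180 had 8, of which 1 ranked higher and 1 lower, with a median shift of -2.0. The next rises lay in or near Arhgef3, Fbxw8, Nfatc2 (a calcium-regulated transcription factor), Dapk1 (a death-associated kinase), Ptgis (prostacyclin synthase), Chd3 (a remodeller of the NuRD complex), Mga and Epop, by 51.6 to 59.4 percentile points.

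The greatest falls lay outside chromosome 12. A region on chromosome 13 (44320634 to 44321848), 408.9 kb from Jarid2, the nearest protein-coding gene, fell to percentiles of 16.8, 14.6 and 22.3 in the Nur77 libraries from 90.4, 82.5 and 85.3 in the GFP libraries (-2.02 ± 0.15 SE in normal score, limma adjusted p = 7.3e-09). A region inside Zfp462, a zinc finger gene (chromosome 4, 54979815 to 54980965), stood at 12.5, 19.2 and 16.0 against 83.2, 81.7 and 82.1 (-1.93 ± 0.15 SE, limma adjusted p = 1.0e-08). In Prkg2, a cGMP-dependent kinase gene (chromosome 5, 98943202 to 98945231), the values were 30.7, 14.6 and 32.3 against 94.5, 89.2 and 87.7. The Prkg2 region was thus among the stronger shared peaks of the GFP line and among the weaker shared peaks of every Nur77 library. The remaining falls among the 10 lay in or near Rbms3, Pde10a (a phosphodiesterase), Gm38821, Calcb, Dysf (dysferlin, of membrane repair), Lrp12 and Tmem125, by 60.7 to 65.3 points. Tmem125 had the widest GFP spread, 98.0, 68.0 and 62.4. All 20 regions kept their direction and call in each of 12 other rank settings, the fits without single libraries among them; 1 of the 12, ranking by fold, orders the peaks exactly as -log10 q does and could not differ.

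**Figure D2:**
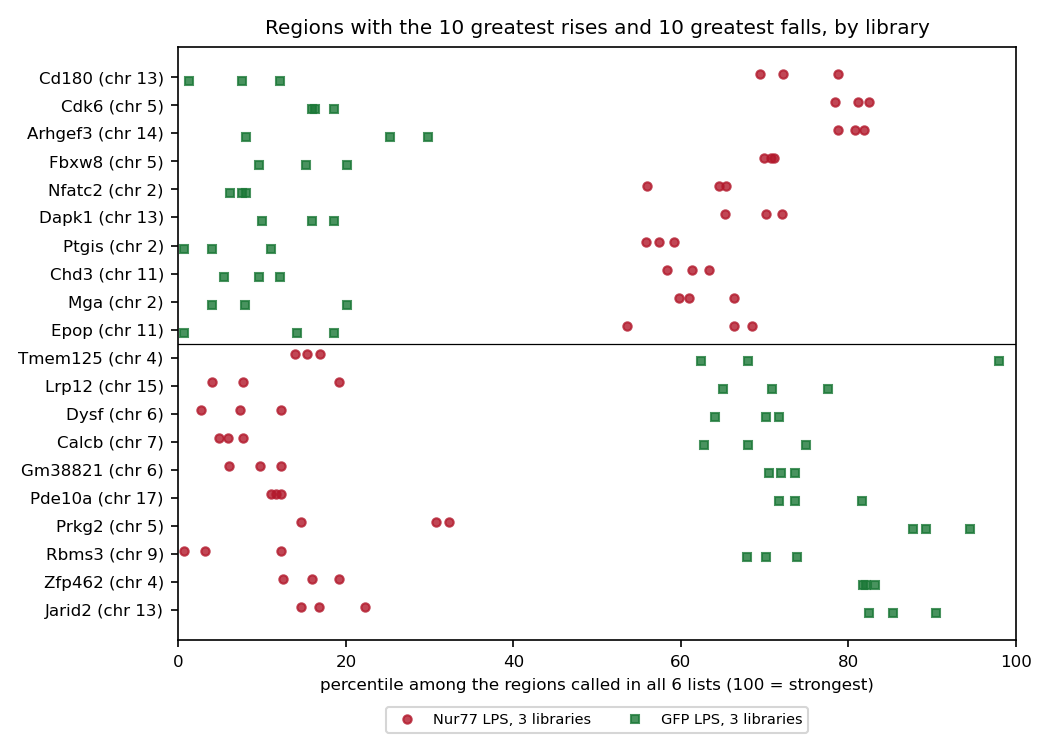
Percentile among shared regions (x axis, 100 strongest) of the 10 regions with the greatest rise (upper rows) and the 10 with the greatest fall (lower rows), named by the nearest protein-coding gene. Red circles are the 3 Nur77 LPS libraries and green squares the 3 GFP LPS libraries. The colours do not overlap in any row because the rule that picked the regions required it. The widest spread is at Tmem125, with GFP values of 98.0, 68.0 and 62.4.

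Chromosome 12 stood apart from all others. Its 1319 shared regions had a median shift of -10.05 percentile points (quartiles -18.15 and -4.66), 587 of them ranked lower (44.5%) and 9 higher, and 209 of its 4432 regions were lost (4.72%). The shift was spread along the chromosome: in 10 Mb steps the median lay between -6.06 and -14.85, with 30.5 to 51.0% of the regions ranked lower. In lists cut to equal length, chromosome 12 held 3.739, 3.687 and 3.808% of the peaks in the Nur77 libraries and 4.828, 4.809 and 4.859% in the GFP libraries. The untreated libraries of the same lines gave 3.766 ± 0.069% and 4.886 ± 0.044% (SD, n = 3 each). In both treatments the lines did not overlap, at the smallest exact permutation p of 0.1 that 3 against 3 libraries allow. Chromosome X lay slightly the other way, with a median shift of 4.16, 23 regions higher and 5 lower, and the other autosomes had medians from -0.07 to 1.45. Without chromosome 12 and with ranks recomputed, 860 of 31172 regions ranked higher (2.76%) and 1697 lower (5.44%), and 236 of 85157 regions were gained (0.277%) and 1481 lost (1.74%). The number of copies of each chromosome in the lines was not tested.

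**Figure D3:**
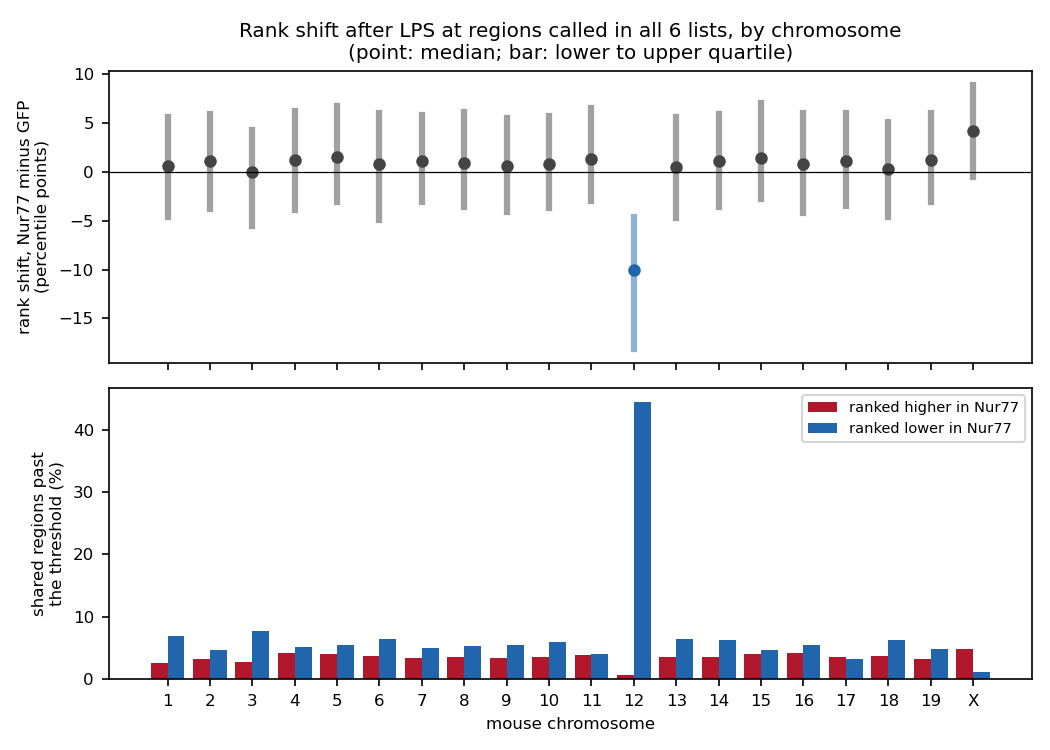
Upper panel: median rank shift in percentile points (points) and quartile range (bars) of shared regions per chromosome. Lower panel: percentage of shared regions ranked higher (red) or lower (blue) in the Nur77 line; chromosome 12 has a median of -10.05 and 44.5% ranked lower, and chromosome X a median of 4.16.

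Genes of the AP-1 family had more regions ranked lower than higher, and most of these lay on chromosome 12. Within 50 kb of the 15 genes, 140 regions were shared, with a median shift of -0.42. Of these, 23 ranked lower (16.4%, all regions 6.93%) and 3 higher (2.14%, all regions 3.46%). Of the 23, 14 lay on chromosome 12 near Fos, Batf and Jdp2. Around Fos, the immediate early partner of Jun, 8 of 11 shared regions ranked lower and 2 more were lost. A region 4.0 kb from Fos (chromosome 12, 85467560 to 85469910) stood at 48.8, 62.0 and 61.7 in the Nur77 libraries and 89.3, 92.7 and 85.0 in the GFP libraries (limma adjusted p = 3.4e-06, and 0.0084 with ranks taken within each chromosome). With ranks taken within chromosomes, 12 regions of the list ranked lower and 3 higher, and without chromosome 12 there were 9 of 116 lower (7.76%, all regions 5.44%) and 3 higher.

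Outside chromosome 12, the AP-1 regions ranked lower lay at Atf3, Batf3, Mafg, Maff and Mafk. Atf3 encodes a stress-induced repressor and activator of the family, and 5 of its 12 shared regions ranked lower, 2 of them in all 6 fits that left out a library. The larger of these 2 shifts, 6.1 kb from the gene (chromosome 1, 191189473 to 191190678), took the region to percentiles of 46.3, 67.4 and 50.1 from 81.8, 80.5 and 76.2 (limma adjusted p = 0.00098). Beside Mafk, a small Maf protein gene, a region (chromosome 5, 139789173 to 139790331) stood at 44.5, 45.8 and 28.5 against 73.9, 71.6 and 64.6 (limma adjusted p = 0.00088). At both regions all Nur77 values lay below all GFP values, but the groups did not overlap at 2208 of all 2252 regions ranked lower. Of the 10 shared regions within 50 kb of Mafk, 5 had negative and 5 positive shifts, with a median of 0.9. At Atf3, 11 were negative and 1 positive. Jun, Junb and Fosl2 had 4, 8 and 11 shared regions within 50 kb, and none passed the test.

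Cytokine and chemokine loci held 134 shared regions, with a median shift of 0.07. Of these, 11 ranked lower (8.21%, all regions 6.93%) and 4 higher (2.99%, all regions 3.46%), close to the shares over all regions. Of 290 merged regions near these genes, 5 were lost and 1 gained (all regions 1.89% and 0.268%). Ranks taken within chromosomes gave 10 lower and 1 higher. Of the 11 falls, 4 were called in all 6 fits that left out a library, and of the 4 rises, 1. At Ccl2, which encodes the main monocyte attractant, all 5 shared regions within 50 kb had negative shifts, 2 of them past the threshold, and 3 regions were lost. The region over the gene (chromosome 11, 82034828 to 82037155) stood at 56.3, 56.8 and 52.4 in the Nur77 libraries and 88.5, 80.9 and 84.2 in the GFP libraries (limma adjusted p = 1.4e-05). A region 25.5 kb from Il1b, an inflammatory interleukin gene (chromosome 2, 129338000 to 129339032), gave 60.3, 63.4 and 68.1 against 89.3, 86.3 and 86.3 (limma adjusted p = 2.6e-05). At neither region did the libraries of the lines overlap, which was so at 2208 of all 2252 regions ranked lower. Of the 8 shared regions within 50 kb of Il1b, 5 had negative and 3 positive shifts. Near Lif, a cytokine of the interleukin-6 family, 4 of 14 shared regions ranked lower, 1 of them in all 6 fits that left out a library.

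The Il6 start site, printed above with its AP-1 and NF-kB letters, stood at percentiles of 34.1, 33.5 and 37.5 in the Nur77 libraries and 54.7, 52.8 and 65.0 in the GFP libraries (limma adjusted p = 0.019). That call was lost without Nur77 replicate 1 (limma adjusted p = 0.067), Nur77 replicate 2 (0.055) or GFP replicate 3 (0.12). Not all genes of the list fell: a region 44.9 kb from Csf2, a growth factor gene of macrophages, rose to 31.9, 29.8 and 42.3 from 4.7, 9.6 and 2.7 (limma adjusted p = 0.0033). Tnf had 14 shared regions within 50 kb, and none passed the test.

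Matrix and protease genes with known AP-1 elements showed no fall among their shared regions. Of 65 shared regions, 4 ranked higher (6.15%, all regions 3.46%) and 0 lower (all regions 6.93%), at a median shift of 2.81. With ranks taken within chromosomes, 2 ranked higher and 0 lower, and without chromosome 12 there were 3 and 0. Mmp9, a gelatinase of activated macrophages, had a region within the gene (chromosome 2, 164951900 to 164953805) at 72.2, 78.1 and 64.7 in the Nur77 libraries and 48.3, 25.4 and 30.6 in the GFP libraries (limma adjusted p = 0.00023). The Mmp9 region was the single rise of the list that held in all 6 fits without a library. Of the 10 shared regions within 50 kb of Mmp9, 7 had negative and 3 positive shifts, with a median of -1.7. Rises near Plau, Plaur and Timp1 were lost in 4 of those 6 fits each. A lone region 10.3 kb from Mmp13, a collagenase gene, was lost, at 46.1, 59.6 and 69.1 in the GFP lists, and was called in none of the 6 untreated lists.

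Genes of resolution and alternative activation had a few calls in each direction. Of 72 shared regions, 5 ranked higher (6.94%, all regions 3.46%) and 3 lower (4.17%, all regions 6.93%), with a median shift of 0.54. Of the 188 regions near these genes, 1 was gained and 2 were lost (all regions 0.268% and 1.89%). All 3 falls lay within 50 kb of Il1rn, which encodes the interleukin-1 receptor antagonist. The region within the gene (chromosome 2, 24341002 to 24342111) stood at 51.2, 55.1 and 52.4 in the Nur77 libraries and 78.7, 89.2 and 81.0 in the GFP libraries (limma adjusted p = 2.8e-05). Socs3, a feedback inhibitor of cytokine receptors, had 2 of 13 shared regions ranked higher, among them one 5.4 kb away at 88.3, 92.3 and 87.1 against 71.7, 73.6 and 73.1 (limma adjusted p = 0.00023). Regions near Tgfb1 and Klf2 also ranked higher, by 17.9 and 11.1 points, in all 6 fits without a library. Il1rn and Socs3, both inhibitors of cytokine signalling, thus moved in opposite directions.

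Of 147 shared regions in the NF-kB list, 7 ranked higher (4.76%, all regions 3.46%) and 8 lower (5.44%, all regions 6.93%). Of 367 merged regions near the genes of this list, 0 were gained and 7 lost (all regions 0.268% and 1.89%). The median shift of the shared regions was 0.46. On chromosome 12, 3 of the lower and 3 of the lost regions lay at Nfkbia. Nfkb1, a subunit gene of the factor, had 2 regions higher and 3 lost. The rises were called in 2 and 4 of the 6 fits that left out a library, and neither was called without Nur77 replicate 1 (limma adjusted p = 0.098 and 0.057) or Nur77 replicate 3 (0.072 and 0.090). The first was also not called without Nur77 replicate 2 (0.12) or GFP replicate 3 (0.057). In the interferon list, 5 of 80 shared regions ranked higher (6.25%, all regions 3.46%) and 3 lower (3.75%, all regions 6.93%). Of 195 merged regions near the interferon genes, 2 were gained and 4 lost (all regions 0.268% and 1.89%). The median shift of the shared regions was 0.26. Ifngr2, a chain of the interferon-gamma receptor, held the strongest rise of the list (chromosome 16, 91560897 to 91562595): 70.1, 77.1 and 66.1 in the Nur77 libraries against 27.7, 13.8 and 24.1 (limma adjusted p = 8.8e-06). Of the 7 shared regions within 50 kb of Ifngr2, 4 had negative and 3 positive shifts. All 4 lost regions of the list lay on chromosome 12 near Rsad2, the antiviral gene of viperin, where 2 shared regions also ranked lower. At the start site the adjusted p of limma was 0.0011, and 0.076 with ranks within the chromosome. Rsad2 is thus a locus whose call at the start site rests on how chromosome 12 is scaled.

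Nuclear receptors and coregulators had 5 of 142 shared regions higher and 4 lower, with a median shift of 0.68. Of 331 merged regions near these genes, 6 were lost (all regions 1.89%), 3 of these in Ppargc1a. A region in Def6, 14.0 kb from Ppard, a lipid-sensing receptor gene, rose by 44.7 points (limma adjusted p = 2.2e-05), and a neighbouring region of Def6 was gained. Cell cycle genes had 5 of 64 shared regions higher, 4 of them at Cdk6, and 1 lower (median shift 2.11). Lipid and energy genes had 1 of 153 higher and 2 lower (median shift 1.10), and housekeeping genes 1 of 74 higher and 1 lower (median shift 2.91). With ranks taken within chromosomes, higher and lower calls numbered 5 and 5 in the NF-kB list, 4 and 3 in the interferon list, 3 and 2 among nuclear receptors and 5 and 2 among cell cycle genes. Over all regions 3.46% ranked higher and 6.93% lower. The shares ranked higher were 7.81% in the cell cycle list, 6.25% in the interferon list and 4.76% in the NF-kB list, each a matter of 5 to 7 regions, and no test of a list was made.

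**Figure D4:**
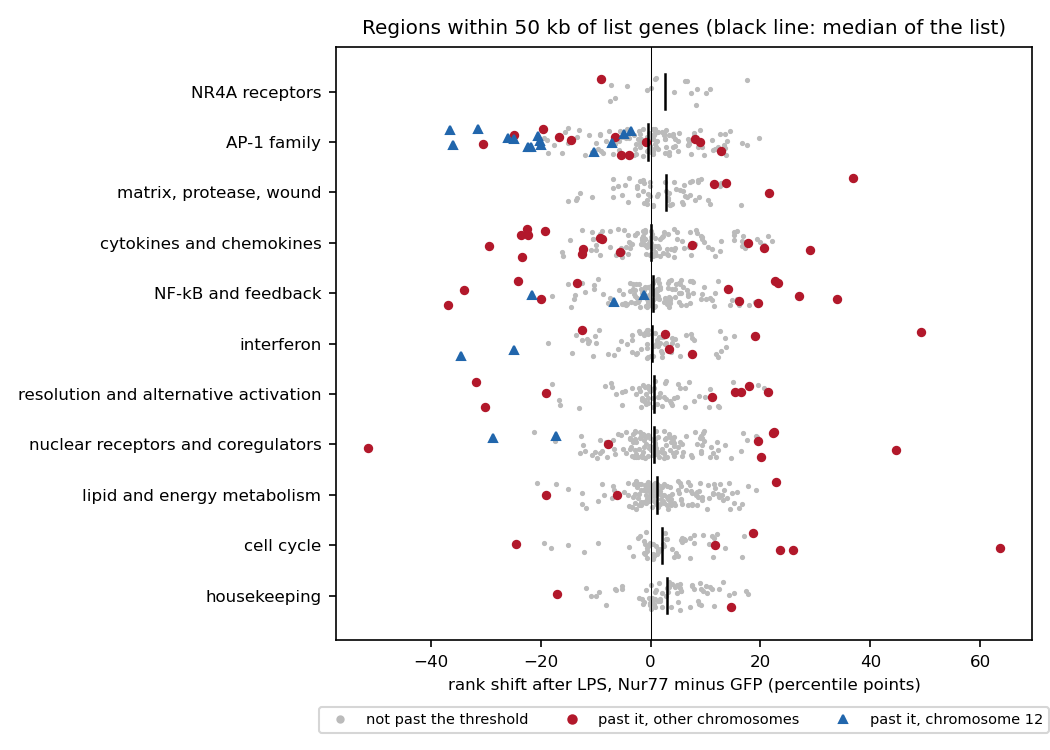
Rank shift in percentile points (x axis) of each shared region within 50 kb of a gene of the 11 lists (rows). Grey dots did not pass the limma threshold, red dots passed it on other chromosomes, blue triangles passed it on chromosome 12, and black lines are list medians; 14 of the 23 AP-1 regions ranked lower are blue triangles, and no region of the matrix and protease list passed on the left.

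Falls also clustered along the genome. Of 1220 windows of 1 Mb outside chromosome 12 that held at least 8 shared, gained or lost regions, 17 had at least 50% of these lost or ranked lower, against a median of 7.7% per window. Regions with any other pattern of calls were not counted in the windows. At Plpp3, a lipid phosphate phosphatase gene, all 10 counted regions of the window (chromosome 4, 105 to 106 Mb) were down, 8 lost and 2 ranked lower. Whatever their calls, Plpp3 itself had 14 merged regions, of which 6 were lost and 2 ranked lower. At Pakap and Ptpn3 (chromosome 4, 57 to 58 Mb), 25 of 28 counted regions were down, 17 lost and 8 ranked lower, with a median shift of -35.8 among the 11 shared. Pakap, which encodes a kinase-anchoring protein, had 47 merged regions whatever their calls, 12 of them lost and 7 ranked lower. Around Arid5b, a DNA-binding cofactor gene (chromosome 10, 68 to 69 Mb), 10 of 12 were down, and around Atp13a4, Opa1 and Hes1 (chromosome 16, 29 to 30 Mb), 9 of 12. The Atp13a4 start site printed above belonged to these and stood at 46.3, 49.3 and 43.7 in the Nur77 libraries against 87.1, 77.1 and 81.6 (limma adjusted p = 7.6e-06).

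In 2 windows at least 50% of the counted regions were gained or ranked higher. In the first (chromosome 4, 21 to 22 Mb), 8 of 10 were up, 2 gained and 6 ranked higher, across Ccnc (cyclin C), Usp45, Pnisr and Coq3, with a median shift of 19.9. A region at an annotated start within Usp45, a deubiquitinase gene, stood at 65.1, 61.4 and 63.9 in the Nur77 libraries and 37.5, 29.8 and 40.5 in the GFP libraries (limma adjusted p = 0.0026). The other window held Mef2c, a myeloid and muscle transcription factor gene (chromosome 13, 83 to 84 Mb), with 4 of 8 ranked higher. Of the 2 Mef2c regions past the threshold within 50 kb of the gene, 1 was called in all 6 fits without a library and the other in none. These windows were singled out after their values were seen, and no test was made of them.

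Start sites and other regions differed in direction outside chromosome 12. At shared regions within 1 kb of a start site, 3.78% ranked higher and 1.88% lower (8969 regions). Elsewhere 3.49% ranked higher and 6.74% lower (22203 regions). These calls used the ranks over all chromosomes, not the ranks recomputed without chromosome 12, and the recomputed calls were not split by place. Over all chromosomes, 5.50% of lost and 13.3% of gained regions were at start sites, against 13.7% of all regions. Start-site and other regions ranked apart gave 1015 higher and 1922 lower calls.

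The AP-1 letters were more common at start sites that ranked lower. TGANTCA, in either strand, occurred in 7.81% of 32817 RefSeq windows of 300 bases around start sites, 250 before and 50 after. Outside chromosome 12, 31 of 136 start-site regions ranked lower held it (22.8%), against 560 of 8380 shared start-site regions (6.68%) and 15 of 323 ranked higher (4.64%). The calls here too used the ranks over all chromosomes. Cgref1, whose window is printed above, held the greatest fall among them: 19.6, 23.7 and 18.0 in the Nur77 libraries against 81.8, 78.2 and 67.5 (limma adjusted p = 6.4e-07). At Cd244a, which encodes a receptor of the SLAM family, the values were 6.0, 0.3 and 28.5 against 54.7, 42.8 and 45.8 (limma adjusted p = 0.0038). On chromosome 12, 20 of 176 start-site regions ranked lower held the letters (11.4%), close to the 33 of 335 of all its shared start-site regions (9.85%).

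The NBRE, the monomer element of Nur77 (letters AAAGGTCA), occurred in 1.51% of all windows, in 4 of 324 start-site regions ranked higher (1.23%), 4 of 312 ranked lower (1.28%) and 91 of 8715 shared (1.04%). Gained start-site regions held it in 0 of 21 and lost ones in 0 of 49. The CRE letters TGACGTCA were found in 3.70% of the regions ranked higher and 3.21% of those ranked lower, and the NF-kB letters in 1.85% and 0.641%. A match is a run of letters in the reference and does not show binding. Only start-site windows could be searched, so the lost and lower regions away from start sites are not covered (5.50% of lost and 16.2% of lower regions lay at start sites).

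Most shifts after LPS were present in the same direction without LPS. The untreated libraries of the 2 lines, which were not used to merge or rank the regions above, called 26594 of the shared regions in all 6 of their lists. Over these the shift with LPS and the shift without it correlated at Pearson r = 0.614 across regions (0.582 outside chromosome 12), given as a description since regions are not replicates. Of 823 regions that ranked higher after LPS among the 26594 (3.09%), 749 had the same sign without LPS (91.0%; 66.5% of all 26594 did so, and 91.6% of those on chromosome 12) and 239 passed the same test there (29.0%; 2.35% of all 26594 did so). Of 1691 that ranked lower (6.36%), 1601 had the same sign (94.7%, against the same 66.5%) and 761 passed (45.0%; 4.33% of all did so). At the Cd180 region the untreated percentiles were 71.7, 74.3 and 72.9 against 4.0, 6.3 and 6.3, almost the values seen with LPS. In contrast, Tmem125 had a shift of only -3.3 without LPS (limma adjusted p = 0.88).

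**Figure D5:**
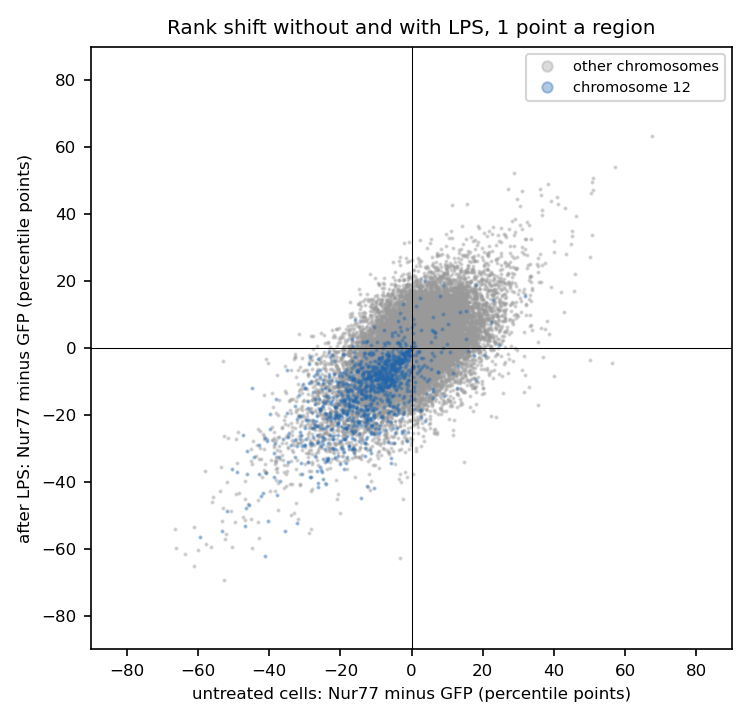
Rank shift, Nur77 minus GFP in percentile points, without LPS (x axis) and after LPS (y axis) for 26594 regions called in all 12 lists. Blue points are chromosome 12 and grey points the other chromosomes; most points far from 0 have the same sign on both axes (Pearson r = 0.614), and chromosome 12 has medians of -10.42 without LPS and -10.49 with it.

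Calls repeated only in part. Of the 240 gained regions, 46 were called in 3 of 3 Nur77 and 0 of 3 GFP lists without LPS too (19.2%, and 0.231% of all regions were). More Nur77 than GFP untreated lists called 142 of the 240, equal numbers called 80 and more GFP lists called 18. Among the 80, 36 had no call in any untreated list and 21 were called in all of them. Of the 1690 lost regions, 437 showed the same split without LPS (25.9%; 2.75% of all regions did), 1202 were called in more GFP than Nur77 lists, and 392 had no call in any untreated list. Among the last were 3 of the 4 lost regions within Atp13a4 and 3 of the 4 near Rsad2. Whether the shift between the lines differed with LPS was tested directly as an interaction over 26378 regions merged from, and called in, all 12 lists. Limma found 0 regions at an adjusted p under 0.05 (lowest adjusted p = 0.14), and 1988 regions (7.54%) had an unadjusted p under 0.05. A count of 0 does not show that the shifts were alike. Regions missing from any untreated list, among them those at Jarid2, Rbms3, Prkg2, Pde10a, Dysf, Cdk6 and Arhgef3, could not enter this test.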

How the data were processed

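ATAC-seq peak lists of 3 Nur77 and 3 GFP libraries with LPS were compared, and the 6 untreated lists of the same lines served for the last comparison. Per the labels' protocols, nuclei were tagmented at 37 °C for 45 min and the size selection kept fragments of less than 700 bp. The build was mm10, and the tools were DiffBind 3.0.15 and cutadapt 2.6, per the submitters' processing notes. Which aligner and which caller made the lists is not given in the sources used here. Peaks were listed per library by the authors, and names in the deposited files record that reads were filtered at mapping quality 20, that duplicates and mitochondrial reads were taken out, and that peaks met a q value of 0.001. The deposited -log10 q and fold (a ratio of summit to background) are the authors' values for each peak, as is the deposited summit offset, and here they order or filter the peaks of 1 list only.

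Rows with equal start and end were collapsed, chromosomes 1 to 19, X and Y were kept, and peaks of the 6 lists that overlapped by at least 1 bp were merged. Starts are printed 1-based. Regions called in all 6 lists were ranked by the strongest peak in each, ranks were turned into normal scores, and limma 3.58.1 (R 4.3.3, lmFit and eBayes with trend) gave p-values, adjusted by Benjamini-Hochberg at 0.05. Values per library were compared by two-sided exact permutation. On simulated scores for this comparison over 32491 regions, 28.0% of shifts of 0.5 and 92.0% of shifts of 1.5 normal scores were recovered, with 1 call among unchanged regions. The simulated noise was normal, independent between libraries and of a spread set by the mean score alone. How many false calls the real lists give was not tested. Tables were made in Python 3.11.15 (pandas 2.3.3, numpy 2.4.6, scipy 1.17.1) and figures with matplotlib 3.10.9.

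Genes and start sites came from RefSeq tables of GRCm38.p6 (21887 protein-coding genes, distance to the gene span), with start sites within 1 kb. Exon and intron annotation was not used here, nor was the sequence under peaks. The AP-1, NBRE, CRE (TGACGTCA), ETS (GAGGAAGT) and NF-kB motifs were searched on both strands, and no match to the CRE letters contains the AP-1 letters.

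Named regions are those within 10 kb of Nr4a1, the 10 most prominent gained and lost regions, the 10 greatest rises and falls with groups not overlapping (lost and lower regions also outside chromosome 12), and up to 30 regions within 50 kb of genes on the lists. A region that this rule picks is not reported here. Other genes were named after their values were seen. These are Cgref1, Cd244a and Atp13a4, the genes of the 1 Mb windows, and the further regions given for single genes of the lists. The regions compared and all gene lists were chosen with earlier results of these data known. Alternatives covered list length, the q threshold, overlap, merging gap, ranking value, scale, chromosome 12, a replicate block and leaving out each library.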

Additional observations from a re-analysis of the deposited data

How the results depend on the processing

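Gained regions numbered 850 with lists trimmed to the shortest, 463 among the strongest 20000 peaks and 843 with trimmed lists without chromosome 12, against 240 with all peaks. Lost regions numbered 1690 with all peaks, 734 among the strongest 20000 peaks and 1088 with trimmed lists without chromosome 12. Leaving out 1 library at a time gave 262 to 1417 gained and 1796 to 5203 lost regions, 471 to 1204 regions ranked higher and 1489 to 2091 ranked lower, and differences in covered length of -15.943 to 2.964 Mb. The counts of gained and lost regions could not fall here, since the rule asks for fewer lists when a library is left out. The difference in covered length turned sign without GFP replicate 3, and the cause was not tested. Under trimming, 126 of the original 240 gains and 794 of the original 1690 losses were found again. Ranking by fold tests nothing here, since fold and -log10 q order the peaks of a list identically. With ranks within each chromosome, 829 regions ranked higher and 1645 lower. That setting, the ranking of start sites apart, trimming together with the removal of chromosome 12 and the leaving out of libraries for the values per list were chosen after seeing the data.

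No pairing by replicate number was visible in the ranks: deviations of same-numbered libraries correlated at -0.003, -0.013 and 0.037. This does not show that the libraries were prepared apart. With the replicate number as a block, 1192 regions ranked higher and 2293 lower, and the interaction again gave 0 calls. Trimmed lists are equal in length but not in depth, so a peak near the end of a list remains the least certain kind of call.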

Other observations

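The ETS letters GAGGAAGT occurred in 5 of 21 gained start-site regions (23.8%) and in 362 of 8715 shared ones (4.15%). With 21 regions this is a description, and no test was made.

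Further windows of 1 Mb held many lost or lower regions. Only shared, gained or lost regions were counted in them. On chromosome 17 (8 to 9 Mb), which holds Pde10a, 14 of 23 were down, and on chromosome 13 (45 to 46 Mb), which holds Atxn1 and Mylip, 15 of 25. Of all 45 merged regions of Rps6ka2, a ribosomal kinase gene, 9 were lost and none ranked lower. Arhgap23, a GTPase-activating protein gene, ran the other way, with 6 of all its 18 merged regions ranked higher and 1 lost.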
